A study of Homo sapiens with 48 samples.

Results

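The genes described here make cholesterol and fatty acids or set the pace at which cells do so. They were named by symbol (31 symbols) from the mevalonate pathway, the steps from squalene to cholesterol, the regulators of sterol sensing, sterol transport, and the synthesis, elongation and desaturation of fatty acids by a rule that reads symbols and no measured value. The genes were nevertheless chosen with earlier results of these data known. Of the 31, 30 were found among the 14685 genes of each count table, and CYP51A1 was not analysed here.

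Cells sense sterols in the membrane of the endoplasmic reticulum. When sterols are low, SCAP carries the SREBP transcription factors (made from SREBF1 and SREBF2) to the Golgi, where proteases free their active parts. SREBP-2 mainly drives the genes of cholesterol synthesis and SREBP-1 those of fatty acid synthesis, often together with the CCAAT-binding factor NF-Y, and the INSIG proteins hold SCAP back when sterols are plentiful. INSIG1 is itself a target of SREBPs, so its transcript is widely used as a readout of the pathway.

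The libraries came from HEK293T, a line derived from human embryonic kidney and carrying SV40 large T antigen, in which the protein NCBP1, a subunit of the complex that binds the cap of nuclear mRNA, was expressed from a transfected plasmid as a fusion with HaloTag. All 4 arms carried this NCBP1-Halo plasmid, the cells were a transfected pool of 1 line, and counts of NCBP1 from the plasmid and from the chromosome cannot be told apart. In T-REX, a photocaged precursor of the lipid-derived electrophile HNE (Ht-PreHNE) binds HaloTag and light releases HNE next to NCBP1, so that NCBP1 is HNEylated. The T-REX arm received probe and light, the probe alone arm received the probe without light, and the DMSO arm received only the vehicle without light. The arm called light alone carries the label UV. The study's own list of controls gives it the probe as well, so by that list it would have had the same agents as T-REX, and whether these cells received the probe was not settled by the sources used here. RNA was taken 3, 6 and 12 h after treatment with 4 biological replicates per arm and time, 48 libraries in all.

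Total counts ran from 23952455 to 37099535 per library. NCBP1 stood between 30797 and 92201 CPM (read counts scaled to library size, with trimmed mean of M values factors over all 48 libraries) and differed between arms, so its difference is given beside the results below. Of the 11 markers of HEK293T cells looked for, 9 were found, among them VIM (437 to 668 CPM), CDH2 (62.2 to 102 CPM), EYA1 (33.8 to 51.9 CPM) and, lowest of the 9, LHX1 (0.771 to 3.15 CPM). Of the markers of fibroblasts, blood, endothelium and hepatocytes, COL1A1 of fibroblasts stood at 2.13 to 6.07 CPM and the rest were not analysed here. In bulk RNA, fewer cells of a type and less RNA per cell cannot be told apart.

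The stretch of 250 bases upstream of the start was read for the genes that differed in most comparisons of arms (HMGCS1, IDI1, INSIG1 and ELOVL6, 4 comparisons each), since SREBPs and NF-Y act at such places. SREBF2 was added after the search because, of the 26 genes of the pathway with an entry, it alone held the letters of a sterol regulatory element. The letters searched on both strands were TCACNCCAC (a sterol regulatory element), CCAAT (the NF-Y box, which reads ATTGG on the opposite strand) and CACGTG (an E-box). Capitals mark these matches. The sequences are from RefSeq, build GRCh38.p14, each read 5′ to 3′ on the strand of its gene, and the first listed start was used where a gene has several.
HMGCS1 (chr5:43313413-43313662, minus strand): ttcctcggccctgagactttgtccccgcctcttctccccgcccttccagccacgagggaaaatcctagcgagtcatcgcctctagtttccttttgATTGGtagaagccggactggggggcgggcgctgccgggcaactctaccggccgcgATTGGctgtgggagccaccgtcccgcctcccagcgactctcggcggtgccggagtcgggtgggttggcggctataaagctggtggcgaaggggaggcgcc
IDI1 (chr10:1056705-1056954, minus strand): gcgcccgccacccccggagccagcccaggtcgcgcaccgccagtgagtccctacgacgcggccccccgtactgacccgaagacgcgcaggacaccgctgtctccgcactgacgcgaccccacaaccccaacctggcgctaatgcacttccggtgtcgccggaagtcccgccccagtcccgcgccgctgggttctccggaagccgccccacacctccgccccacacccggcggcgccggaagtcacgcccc
INSIG1 (chr7:155297628-155297877, plus strand): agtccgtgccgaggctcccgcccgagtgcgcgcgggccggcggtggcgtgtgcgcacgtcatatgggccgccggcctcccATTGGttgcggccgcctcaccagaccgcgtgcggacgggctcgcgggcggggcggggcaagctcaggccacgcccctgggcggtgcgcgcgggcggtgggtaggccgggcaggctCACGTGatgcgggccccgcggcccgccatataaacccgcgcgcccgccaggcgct
SREBF2 (chr22:41832855-41833104, plus strand): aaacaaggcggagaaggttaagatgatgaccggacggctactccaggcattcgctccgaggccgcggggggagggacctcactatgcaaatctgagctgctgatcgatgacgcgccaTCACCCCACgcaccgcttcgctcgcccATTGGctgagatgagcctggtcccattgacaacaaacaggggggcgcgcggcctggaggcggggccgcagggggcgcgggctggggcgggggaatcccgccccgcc
ELOVL6 (chr4:110198616-110198865, minus strand): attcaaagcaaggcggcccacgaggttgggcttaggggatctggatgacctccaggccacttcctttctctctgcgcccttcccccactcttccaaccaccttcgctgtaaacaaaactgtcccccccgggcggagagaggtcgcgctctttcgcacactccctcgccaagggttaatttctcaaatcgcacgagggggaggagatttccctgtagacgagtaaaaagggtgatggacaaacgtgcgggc
In HMGCS1 both NF-Y boxes began 155 and 100 bases before the start. In INSIG1 the NF-Y box began 170 bases and the E-box 55 bases before the start, and in SREBF2 the sterol regulatory element began 133 bases and the NF-Y box 106 bases before it. The windows shown for IDI1 and for ELOVL6 held none of the letters. IDI1 has 3 listed starts, and an NF-Y box lay in a window of IDI1 that is not shown. Over the 37 windows of genes of the pathway, 22 (59.5%) held an NF-Y box, 4 (10.8%) an E-box and 1 (2.7%) the sterol regulatory element, whereas of all 35116 windows 32% held an NF-Y box, 6.34% an E-box and 0.883% the sterol regulatory element. These matches describe letters and are not evidence of binding.

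Each of the 6 pairs of arms was compared at each time, 18 comparisons in all, with edgeR's quasi-likelihood test, and a gene was called when its Benjamini-Hochberg adjusted p over all genes was at most 0.05. Of the 30 genes, 12 (40%) were called in at least 1 comparison and 18 in none, where 16.6% of all genes were called in at least 1. Because the genes were chosen with earlier results known, these shares are a description and not a test of the set. HMGCS1, IDI1, INSIG1 and ELOVL6 were called in 4 comparisons each, FDFT1 and SREBF2 in 2 each, and ACAT2, DHCR7, PMVK, SC5D, SCD and SQLE in 1 each. The differences were modest throughout, with called log2 fold changes between -0.48 and 0.62.

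**Figure D1:**
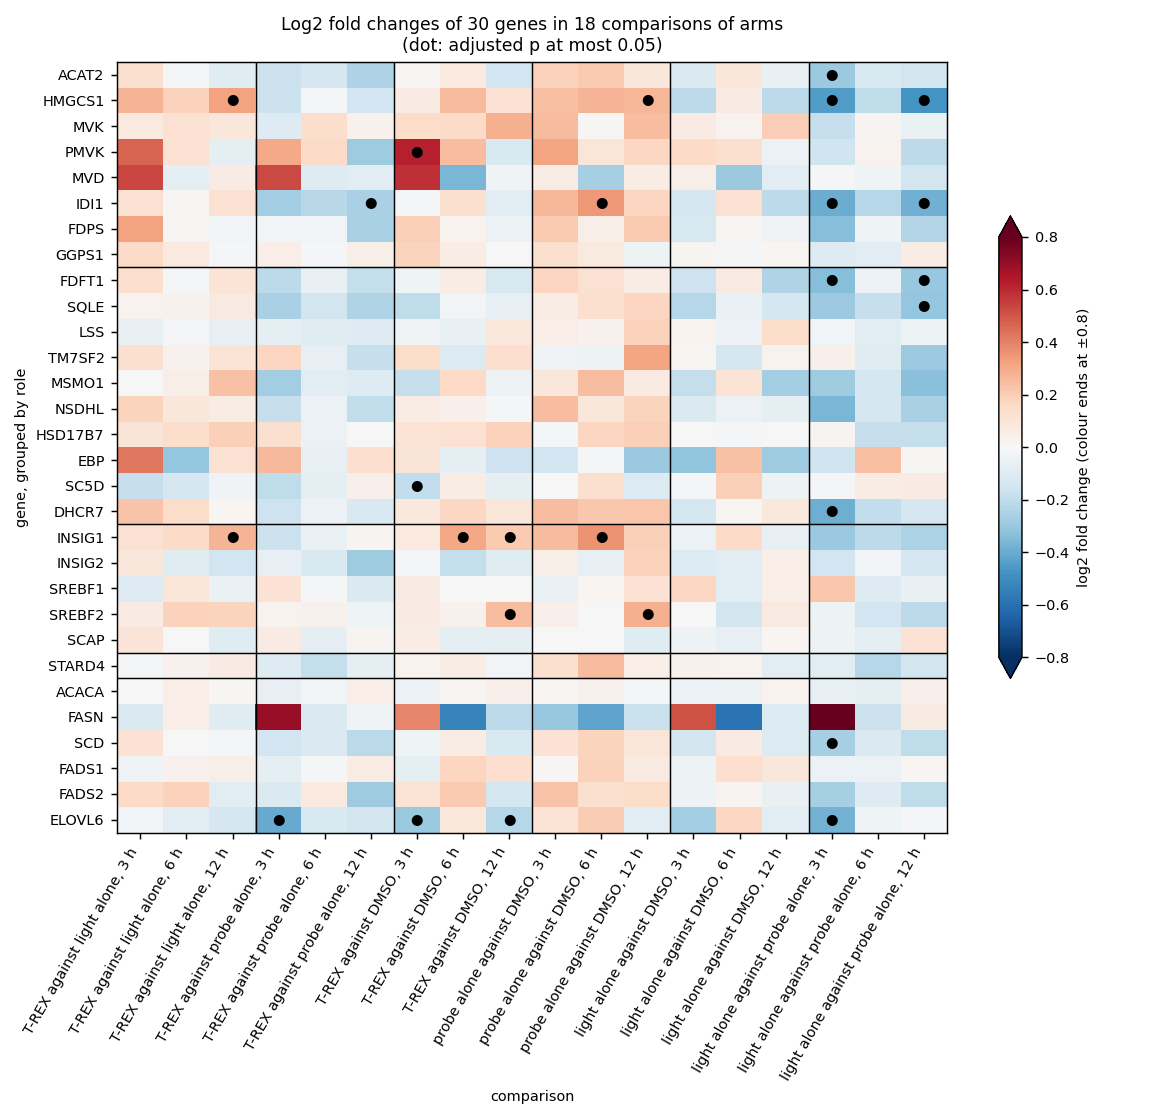
Log2 fold changes of the 30 genes (rows, grouped by role) in the 18 comparisons of arms (columns), with red for higher and blue for lower in the first-named arm, and a dot where the adjusted p was at most 0.05. The dots gather in light alone against probe alone at 3 h (7 genes) and 12 h (4 genes), all blue, and the 18 genes without a dot in any column include FASN, whose deep colours went with a wide spread between replicates.

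The comparison with the most calls was that between light alone and probe alone. It holds NCBP1-Halo in common and sets a light-treated control against the control that had the probe in the dark. At 3 h, 7 of the 30 genes (23.3%) were called and all 7 were lower with light alone, while 0.232% of all genes were called and 0.17% were called as lower. They were ACAT2, HMGCS1 and IDI1 of the mevalonate pathway, FDFT1 and DHCR7 of sterol synthesis, and SCD and ELOVL6 of fatty acid synthesis. By sign alone, 26 of the 30 were lower, with a median log2 fold change of -0.16 against 0.01 over all genes.

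HMGCS1 encodes the cytosolic HMG-CoA synthase, which makes HMG-CoA, the precursor of mevalonate. At 3 h it stood at 134, 132, 125 and 151 CPM with light alone and at 208, 183, 191 and 163 CPM with probe alone. All light alone libraries were below all probe alone libraries, and the T-REX libraries (165, 173, 161 and 154 CPM) and DMSO libraries (158, 172, 133 and 163 CPM) lay between or across them. The log2 fold change was -0.45 ± 0.07 (SE, n = 4 per arm, adjusted p = 0.0150).

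IDI1 encodes isopentenyl diphosphate isomerase, which readies the isoprene units for chain building. At 3 h IDI1 stood at 186, 180, 167 and 179 CPM with light alone and at 251, 269, 231 and 200 CPM with probe alone, again without overlap. Its log2 fold change was -0.40 ± 0.08 (SE, n = 4 per arm, adjusted p = 0.0436). ACAT2, the cytosolic thiolase that opens the pathway, stood at 59.6 to 65.7 CPM with light alone and 71.5 to 81.7 CPM with probe alone (log2 fold change -0.30 ± 0.06 SE, adjusted p = 0.0452).

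FDFT1, squalene synthase, commits the pathway to sterols. At 3 h FDFT1 stood at 69.1, 66.3, 60.9 and 63.0 CPM with light alone and at 85.6, 84.8, 80.7 and 80.7 CPM with probe alone, and the log2 fold change was -0.34 ± 0.05 (SE, n = 4 per arm, adjusted p = 0.00853). Its groups were tight and did not overlap. DHCR7, which carries out the last reduction to cholesterol in a branch of the pathway, stood at 54.3 to 65.1 CPM with light alone and 73.3 to 85.7 CPM with probe alone (log2 fold change -0.39 ± 0.07 SE, adjusted p = 0.0309).

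Among the fatty acid genes, SCD, the stearoyl-CoA desaturase that puts the first double bond into saturated chains, stood at 378 to 399 CPM with light alone and 448 to 519 CPM with probe alone (log2 fold change -0.27 ± 0.05 SE, adjusted p = 0.0309). ELOVL6, which lengthens palmitate to stearate, stood at 35.3 to 37.8 CPM with light alone and 42.3 to 54.1 CPM with probe alone (log2 fold change -0.38 ± 0.08 SE, adjusted p = 0.0436). Neither pair of groups overlapped. FDPS (log2 fold change -0.34), SQLE (-0.29), NSDHL (-0.36), MSMO1 (-0.28), INSIG1 (-0.30) and FADS2 (-0.27) had unadjusted p under 0.05 and were not called. Of the 5 regulators 0 were called at 3 h.

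The calls at 3 h rested on few libraries. Leaving out light alone replicate 3 or probe alone replicate 1 left 0 of the 7 called, leaving out light alone replicate 1 or 2 or probe alone replicate 3 left 1, and over the 8 fits the log2 fold change ranged from -0.50 to -0.39 for HMGCS1 and from -0.37 to -0.32 for FDFT1. The fit of these 2 arms alone called 11 of the 30 genes and 1.06% of all genes. NCBP1 did not pass the test between the arms at 3 h (log2 fold change -0.06, 95% interval -0.32 to 0.21).

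At 6 h 0 of the 30 genes were called between light alone and probe alone by edgeR, where 0.0613% of all genes were. DESeq2 also called 0, and 6 had unadjusted p under 0.05: HMGCS1, IDI1, SQLE, DHCR7, INSIG1 and STARD4. HMGCS1 had a log2 fold change of -0.20 (95% interval -0.34 to -0.06) and IDI1 one of -0.23 (95% interval -0.36 to -0.10). By sign, 26 of the 30 were lower with light alone, with a median of -0.10.

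At 12 h 4 of the 30 genes (13.3%) were called, again all lower with light alone, where 0.415% of all genes were called and 0.218% were called as lower. HMGCS1 stood at 102, 95.1, 94.6 and 107 CPM with light alone and at 141, 134, 147 and 133 CPM with probe alone (log2 fold change -0.48 ± 0.06 SE, adjusted p = 0.000195). IDI1 stood at 123, 121, 130 and 141 CPM with light alone and at 168, 173, 164 and 163 CPM with probe alone (log2 fold change -0.38 ± 0.06 SE, adjusted p = 0.00324). For both genes the groups lay well apart, and both calls held when any 1 of the 8 libraries was left out.

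FDFT1 at 12 h stood at 65.4, 62.7, 64.8 and 63.5 CPM with light alone and at 76.5, 82.0, 84.6 and 71.2 CPM with probe alone (log2 fold change -0.30 ± 0.06 SE, adjusted p = 0.0111). SQLE, the squalene epoxidase that oxidises squalene in an early slow step of sterol synthesis, stood at 114, 115, 112 and 111 CPM with light alone and at 139, 142, 150 and 128 CPM with probe alone (log2 fold change -0.31 ± 0.06 SE, adjusted p = 0.0263). All light alone libraries of both genes were below all probe alone libraries. SQLE was not called without any 1 library other than probe alone replicate 4, with log2 fold changes of -0.35 to -0.28, and FDFT1 was not called without light alone replicate 2 or probe alone replicate 2 or 3, with -0.35 to -0.26. INSIG1 had a log2 fold change of -0.25 (95% interval -0.38 to -0.13) and was not called.

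At 12 h the median log2 fold change of the 6 fatty acid genes was 0.00, against -0.18 for the 8 mevalonate pathway genes and -0.23 for the 10 sterol synthesis genes. SCD (-0.20) and FADS2 (-0.21) were lower with unadjusted p under 0.05 and ELOVL6 was at -0.01. NCBP1 was lower with light alone at 6 h, where its log2 fold change was -0.99 (adjusted p = 0.0144), and had a log2 fold change of -0.55 at 12 h that was not called (adjusted p = 0.0699). Its part in the differences of the sterol genes was not tested.

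**Figure D2:**
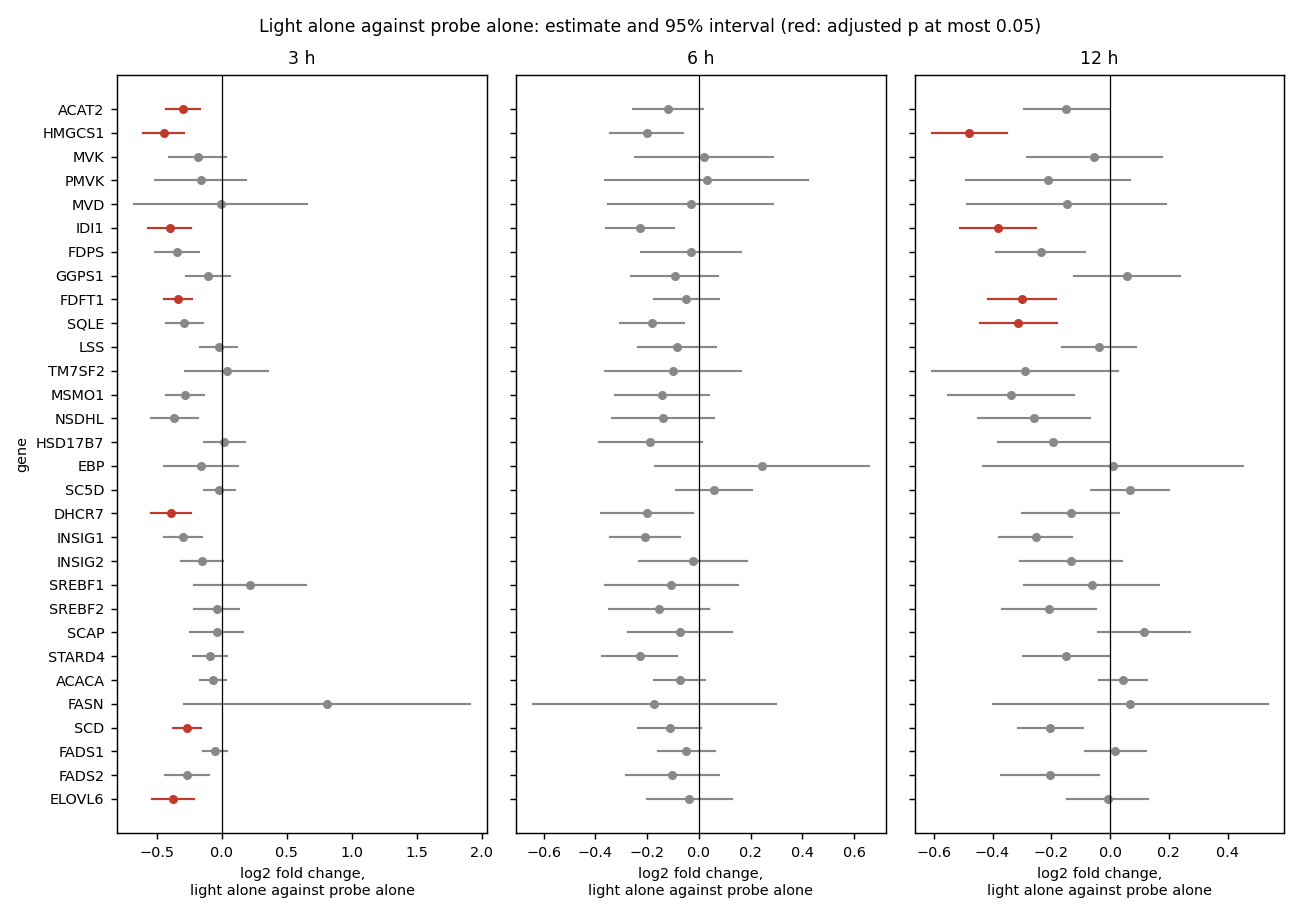
Log2 fold change of light alone against probe alone (horizontal axis, a separate scale for each time) with its 95% interval for each of the 30 genes, 4 libraries per arm, red where the adjusted p was at most 0.05. At 3 h and 12 h the estimates of most sterol genes lie below 0, at 12 h HMGCS1 (-0.48) and IDI1 (-0.38) are farthest from it, and the interval of FASN at 3 h runs from -0.29 to 1.91.

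Probe alone was also set against DMSO, which asks what the probe did without light. At 3 h 0 of the 30 genes were called by edgeR and 0 by DESeq2, where 0.00681% of all genes were called, although 11 had unadjusted p under 0.05 and 24 were higher by sign (median log2 fold change 0.10). All 8 mevalonate pathway genes had a positive estimate at 3 h. HMGCS1 had a log2 fold change of 0.24 (95% interval 0.08 to 0.39), IDI1 of 0.26 (0.10 to 0.43) and INSIG1 of 0.25 (0.11 to 0.39). NCBP1 had one of 0.25 that was not called.

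At 6 h IDI1 and INSIG1 were called as higher with probe alone than with DMSO, 2 of the 30 genes (6.67%), where 0.0272% of all genes, 4 in number, were called. IDI1 stood at 181, 186, 181 and 168 CPM with probe alone and at 137, 137, 129 and 159 CPM with DMSO (log2 fold change 0.35 ± 0.06 SE, adjusted p = 0.0482). INSIG1, which retains SCAP in the endoplasmic reticulum, stood at 182, 183, 160 and 167 CPM with probe alone and at 133, 139, 131 and 135 CPM with DMSO (log2 fold change 0.36 ± 0.07 SE, adjusted p = 0.0482). Neither gene's groups overlapped. Each call was lost in 7 of the 8 fits that left out 1 library, with log2 fold changes of 0.31 to 0.41 for IDI1, which was called only without DMSO replicate 4, and of 0.33 to 0.40 for INSIG1, which was called only without probe alone replicate 3. NCBP1 had a log2 fold change of 0.63 that was not called.

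At 12 h HMGCS1 and SREBF2 were called as higher with probe alone than with DMSO (6.67% of the 30 genes, against 5.11% of all genes), a share close to that of all genes. HMGCS1 stood at 141, 134, 147 and 133 CPM with probe alone and at 117, 116, 127 and 101 CPM with DMSO (log2 fold change 0.27 ± 0.06 SE, adjusted p = 0.0155), without overlap, and its call held without any 1 library. SREBF2, which encodes the SREBP-2 precursor, stood at 145, 162, 153 and 148 CPM with probe alone and at 144, 128, 95.6 and 132 CPM with DMSO (log2 fold change 0.28 ± 0.08 SE, adjusted p = 0.0371). The lowest probe alone and the highest DMSO library of SREBF2 lay side by side, and DMSO replicate 3 was far below the others. Without that library the log2 fold change was 0.18, and the SREBF2 call was lost without any probe alone replicate or DMSO replicate 2 (0.18 to 0.36 over the 8 fits). The fit of the 2 arms alone called neither gene. NCBP1 too was called, with probe alone higher (log2 fold change 0.77, adjusted p = 0.00541), and its part was not tested.

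T-REX was set against each of its controls, none of which isolates the release of HNE next to NCBP1. By treatment, T-REX differs from DMSO in probe and light and from probe alone in light. Whether it differs from light alone in the probe was not settled. Against light alone, 0 of the 30 genes were called at 3 h by edgeR (0.197% of all genes; 8 with unadjusted p under 0.05 and 2 called by DESeq2) and 0 at 6 h (0.218% of all genes; 3 with unadjusted p under 0.05 and 0 by DESeq2). At 3 h all 8 mevalonate pathway genes had a positive estimate, with a median log2 fold change of 0.21. At 12 h HMGCS1 and INSIG1 were called as higher with T-REX, 2 of the 30 genes (6.67%), against 1.29% of all genes.

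HMGCS1 at 12 h stood at 132, 125, 125 and 117 CPM with T-REX and at 102, 95.1, 94.6 and 107 CPM with light alone (log2 fold change 0.32 ± 0.06 SE, adjusted p = 0.00486). INSIG1 stood at 175, 186, 171 and 167 CPM with T-REX and at 138, 145, 145 and 151 CPM with light alone (log2 fold change 0.27 ± 0.06 SE, adjusted p = 0.0160). The T-REX libraries were above the light alone libraries for both. The HMGCS1 call held without any 1 library, whereas the INSIG1 call failed without T-REX replicate 1 or 2 or light alone replicate 1, 2 or 3 (log2 fold changes 0.24 to 0.30 over the 8 fits). Between these arms NCBP1 had log2 fold changes of 0.30 at 3 h, 0.80 at 6 h (adjusted p = 0.0214) and 0.51 at 12 h (adjusted p = 0.0678). Only the difference at 6 h was called, and the part of NCBP1 was not tested.

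Against probe alone, T-REX had 1 call of 30 (3.33%) at 3 h, where 1.05% of all genes were called, 0 at 6 h by edgeR (0.109% of all genes; 4 with unadjusted p under 0.05, 0 called by DESeq2) and 1 at 12 h (0.701% of all genes). At 3 h ELOVL6 stood at 34.8, 40.9, 34.4 and 33.6 CPM with T-REX and at 51.0, 54.1, 42.3 and 44.7 CPM with probe alone (log2 fold change -0.40 ± 0.08 SE, adjusted p = 0.0167). At 12 h IDI1 stood at 143, 144, 134 and 137 CPM with T-REX and at 168, 173, 164 and 163 CPM with probe alone (log2 fold change -0.26 ± 0.06 SE, adjusted p = 0.0435). Both were lower with T-REX without overlap of the groups. The ELOVL6 call failed without T-REX replicate 4 or probe alone replicate 1 or 2 and in the fit of the 2 arms alone, and the IDI1 call was lost without any 1 library other than probe alone replicate 4, with log2 fold changes of -0.47 to -0.34 and -0.28 to -0.24. NCBP1 had log2 fold changes of 0.25 at 3 h, -0.19 at 6 h and -0.04 at 12 h, none of them called.

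Against DMSO, 3 of the 30 genes (10%) were called at 3 h, where 5.99% of all genes were. PMVK, phosphomevalonate kinase, stood at 5.92, 7.14, 10.4 and 6.83 CPM with T-REX and at 4.18, 5.49, 5.58 and 4.51 CPM with DMSO (log2 fold change 0.62 ± 0.17 SE, adjusted p = 0.0330). SC5D, which adds a double bond to the sterol ring, stood at 248, 244, 216 and 228 CPM with T-REX and at 280, 280, 247 and 269 CPM with DMSO (log2 fold change -0.20 ± 0.06 SE, adjusted p = 0.0418). PMVK was higher without overlap, on 97 to 295 counts per library, and SC5D was lower with groups that touched.

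ELOVL6 at 3 h stood at 34.8, 40.9, 34.4 and 33.6 CPM with T-REX and at 46.8, 43.9, 40.2 and 46.2 CPM with DMSO (log2 fold change -0.30 ± 0.08 SE, adjusted p = 0.0283). T-REX replicate 2 reached into the DMSO range. None of the 3 genes was called in the fit of the 2 arms alone or without DMSO replicate 1, 2 or 4, or without T-REX replicate 4. SC5D was also not called without T-REX replicate 2 or 3, nor PMVK without T-REX replicate 3. Over the 8 fits that left out 1 library the log2 fold changes ran from 0.43 to 0.72 for PMVK, from -0.23 to -0.16 for SC5D and from -0.36 to -0.27 for ELOVL6. NCBP1 was itself higher with T-REX than with DMSO (log2 fold change 0.50, adjusted p = 0.0290).

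At 6 h INSIG1 was the 1 gene of 30 (3.33%) called between T-REX and DMSO, where 0.415% of all genes were. It stood at 170, 175, 173 and 148 CPM with T-REX and at 133, 139, 131 and 135 CPM with DMSO, without overlap (log2 fold change 0.31 ± 0.07 SE, adjusted p = 0.0335). The call failed without T-REX replicate 1, 2 or 3 or DMSO replicate 1 or 3, with log2 fold changes of 0.28 to 0.36. HMGCS1 had a log2 fold change of 0.25 (95% interval 0.11 to 0.40) and was not called, and NCBP1 one of 0.44 that was not called.

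At 12 h 3 of the 30 genes (10%) were called between T-REX and DMSO, a share close to the 10.9% of all genes. INSIG1 stood at 175, 186, 171 and 167 CPM with T-REX and at 141, 156, 169 and 136 CPM with DMSO (log2 fold change 0.21 ± 0.06 SE, adjusted p = 0.0267), with DMSO replicate 3 inside the T-REX range. SREBF2 stood at 148, 143, 156 and 148 CPM with T-REX against the DMSO values above (log2 fold change 0.25 ± 0.08 SE, adjusted p = 0.0400), and without DMSO replicate 3 the log2 fold change was 0.15 and was not called. ELOVL6 stood at 38.2, 42.3, 40.5 and 39.8 CPM with T-REX and at 44.6, 51.1, 47.9 and 44.7 CPM with DMSO, lower without overlap (log2 fold change -0.23 ± 0.07 SE, adjusted p = 0.0280).

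The calls of INSIG1, SREBF2 and ELOVL6 against DMSO at 12 h were absent from the fit of the 2 arms alone. Leaving out 1 library lost INSIG1 without T-REX replicate 1, 2 or 3 or DMSO replicate 1 or 4 (0.16 to 0.28), SREBF2 without any T-REX replicate or DMSO replicate 2 or 3 (0.15 to 0.33), and ELOVL6 without T-REX replicate 1, 3 or 4 or DMSO replicate 2 (-0.26 to -0.19). NCBP1 had a log2 fold change of 0.73 in this comparison (adjusted p = 0.00252), and its part was not tested.

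Light alone and DMSO differed in 0 of the 30 genes by edgeR at every time, with 0.00681% of all genes called at 3 h, 0.00681% at 6 h and 0.0136% at 12 h. Unadjusted p was under 0.05 for 7, 5 and 6 of the 30 genes at 3, 6 and 12 h, and DESeq2 called 0, 0 and 1. HMGCS1 had log2 fold changes of -0.21 (95% interval -0.36 to -0.05) at 3 h and -0.21 (-0.34 to -0.08) at 12 h. Those of NCBP1 were 0.19 at 3 h, -0.37 at 6 h and 0.22 at 12 h, none of them called. Comparisons that share an arm share its 4 libraries, so the values of light alone and probe alone above return in the other comparisons of those arms.

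Among the regulators, the calls of INSIG1 (4 comparisons) and SREBF2 (2 comparisons) are given above. SREBF1, which encodes the SREBP-1 precursors, was called in none of the 18 comparisons and stood at 9.47 to 17.5 CPM over the 48 libraries, with log2 fold changes of -0.12 to 0.22. SCAP, the escort of the SREBPs, stood at 56.0 to 86.9 CPM with log2 fold changes of -0.10 to 0.12, and INSIG2, the second retention protein, stood at 16.9 to 26.7 CPM with -0.29 to 0.19. Neither SCAP nor INSIG2 was called. SREBF2 ran from 91.4 to 165 CPM and INSIG1 from 131 to 217 CPM.

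The other genes that were not called also included some wide spreads. FASN, the fatty acid synthase, stood at 66.9, 96.6, 284 and 289 CPM in the T-REX libraries at 3 h, at 108, 298, 285 and 107 CPM with light alone and at 110, 101, 124 and 127 CPM with probe alone. The T-REX and light alone libraries split into a low and a high pair, and the log2 fold change of light alone against probe alone was 0.81 with a 95% interval of -0.29 to 1.91. MVD, which decarboxylates mevalonate diphosphate, stood at 4.86, 6.64, 15.8 and 12.0 CPM in the same T-REX libraries, high in replicates 3 and 4 as FASN was. ACACA, the cytosolic acetyl-CoA carboxylase that supplies malonyl-CoA, was the steadiest, at 216 to 265 CPM and with log2 fold changes of -0.07 to 0.05.

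Of the remaining uncalled genes, MVK (7.63 to 16.3 CPM), FDPS (26.8 to 41.6 CPM) and GGPS1 (19.5 to 27.4 CPM) belong to the mevalonate and isoprenoid steps. LSS (66.6 to 90.9 CPM), TM7SF2 (4.04 to 12.3 CPM), MSMO1 (37.4 to 64.0 CPM), NSDHL (19.1 to 45.6 CPM), HSD17B7 (22.9 to 40.9 CPM) and EBP (2.81 to 6.80 CPM) close the sterol ring and trim it. STARD4 (36 to 64.9 CPM) carries sterols between membranes, and FADS1 (123 to 180 CPM) and FADS2 (23.9 to 41.4 CPM) desaturate polyunsaturated fatty acids. EBP and PMVK had the lowest counts, from 79 and 97 per library. FDPS has 8 pseudogenes named after it, IDI1 and HSD17B7 have 3 each and SCD has 1, and how reads shared with them were counted is not given in the sources used here, so those values are uncertain to that extent.

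Whether the difference between T-REX or probe alone and DMSO itself changed with time was tested as an interaction over all 48 libraries. In edgeR 0 of the 30 genes were called in any of the 6 tests. For T-REX minus DMSO, 0.0136% of all genes were called between 6 and 3 h, 0.00681% between 12 and 3 h and 0% between 12 and 6 h, and 6, 2 and 6 of the 30 genes had unadjusted p under 0.05. For probe alone minus DMSO, 0% were called between 6 and 3 h, 0.00681% between 12 and 3 h and 0.763% between 12 and 6 h, and 1, 0 and 5 of the 30 had unadjusted p under 0.05. DESeq2 called 1 of the 30, for T-REX minus DMSO between 6 and 3 h, and 0 in the other tests. A call at 1 time and not at another therefore does not show that the effect differed between times. Change with time was not tested for light alone against probe alone or for the remaining pairs of arms.

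The DMSO libraries give the course without treatment. Each time was deposited as its own table, and time and any difference in handling between those tables cannot be told apart. Between 6 and 3 h 6 of the 30 genes (20%) were called, all lower at 6 h, against 16% of all genes in either direction. NSDHL, a sterol dehydrogenase, stood at 33.5, 38.5, 33.4 and 33.9 CPM at 3 h and at 25, 21, 26.6 and 22.6 CPM at 6 h (log2 fold change -0.55 ± 0.10 SE, adjusted p = 3.95e-05). HMGCS1 (-0.44), IDI1 (-0.48), INSIG1 (-0.30), MSMO1 (-0.28) and SC5D (-0.23) were the others. NSDHL did not overlap between the times.

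Between 12 and 3 h 10 of the 30 genes (33.3%) were called, against 38.8% of all genes. ACAT2 (-0.20), HMGCS1 (-0.44), MVK (-0.44), IDI1 (-0.40), SQLE (-0.38), NSDHL (-0.64) and DHCR7 (-0.27) were lower at 12 h on the log2 scale, and STARD4 (0.48), FADS1 (0.25) and FADS2 (0.33) were higher. STARD4 stood at 42.1, 40.9, 36 and 41.3 CPM at 3 h and at 52.2, 55.7, 64.9 and 50.4 CPM at 12 h (adjusted p = 1.63e-07), without overlap.

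**Figure D3:**
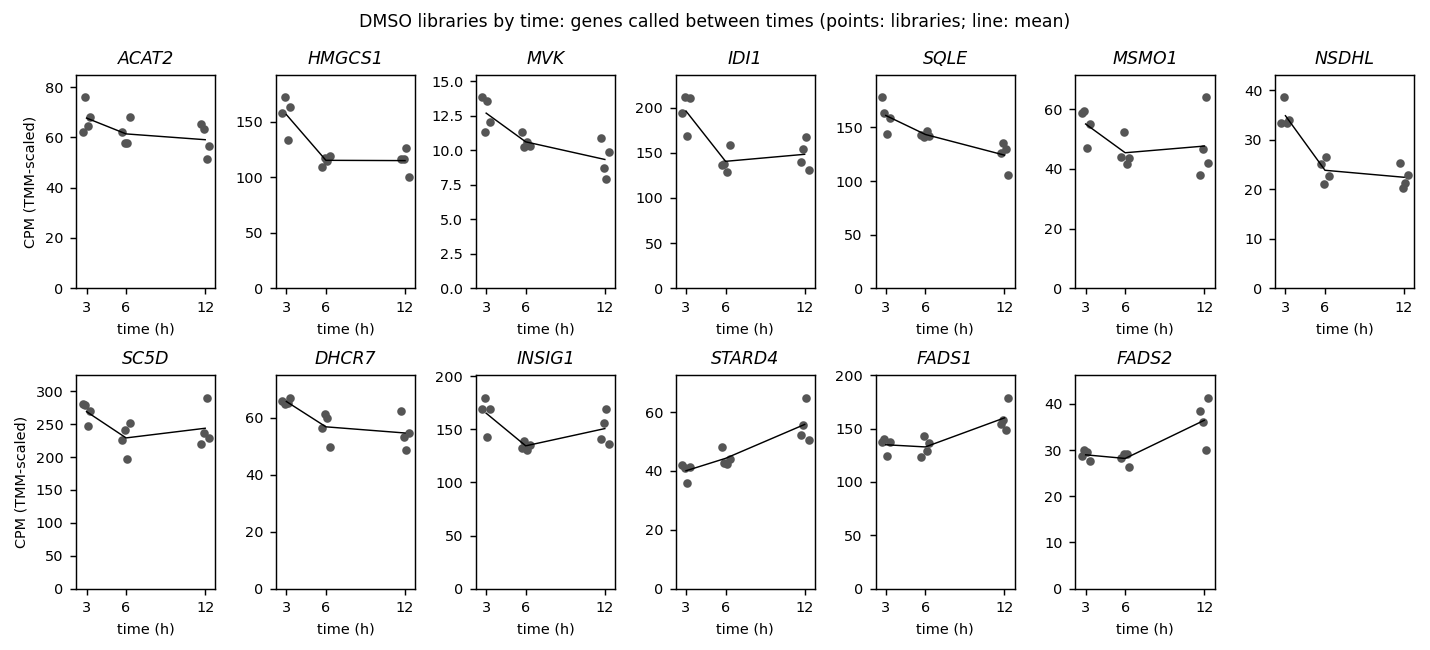
CPM of the 13 genes called between times in the DMSO libraries (vertical axes from 0) against time in hours, each point a library and the line the mean of the 4 libraries. The falls of NSDHL, HMGCS1 and IDI1 lie between 3 and 6 h, and STARD4, FADS1 and FADS2 rise by 12 h.

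Genes next to the pathway were counted from a list of 44 that were found in the tables. They take part in SREBP processing, isoprenoid branches, sterol handling with targets of the sterol sensor LXR, and the supply of acetyl-CoA and acyl chains. Of the 44, 13 (29.5%) were called in at least 1 of the 18 comparisons of arms, against 16.6% of all genes. In the comparison of light alone and probe alone 0 of the 44 were called at 3 h and at 6 h and 1 at 12 h. Of all genes, 0.232%, 0.0613% and 0.415% were called at these times. Against DMSO at 12 h, T-REX had 8 of 44 called (3 higher and 5 lower, 18.2%, against 10.9% of all genes) and probe alone had 5 (3 higher and 2 lower, 11.4%, against 5.11% of all genes).

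ABCA1, which exports cholesterol and is a classic target of LXR, was that 1 gene. At 12 h it stood at 52.1, 47.2, 45.1 and 56.6 CPM with light alone, at 74.8, 74.5, 72.4 and 99.0 CPM with probe alone, at 76.8, 62.5, 68.8 and 81.1 CPM with T-REX and at 47.2 to 54.6 CPM with DMSO. The T-REX and probe alone libraries were above all light alone and DMSO libraries. The log2 fold change of light alone against probe alone was -0.68 (adjusted p = 0.000855), that of T-REX against light alone was 0.53 (adjusted p = 0.00351), that of T-REX against DMSO was 0.50 (adjusted p = 0.00233) and that of probe alone against DMSO was 0.65 (adjusted p = 0.00108), and each held without any 1 library. NCBP1 was higher in the same arms at 12 h, as given above, and its part was not tested.

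LPIN1, a phosphatidate phosphatase that is a known SREBP target, stood at 40.6, 42.8, 39.5 and 39.3 CPM with T-REX at 12 h, at 36.6, 35.4, 36.5 and 34.8 CPM with probe alone, at 30.6, 30.7, 33.1 and 31.3 CPM with light alone and at 30.4, 29.5, 29.6 and 32.9 CPM with DMSO. The T-REX libraries were above those of every other arm. Its log2 fold change was 0.37 (adjusted p = 0.00132) when set against light alone. Set against DMSO it was 0.40 (adjusted p = 0.000255). T-REX against DMSO at 3 h gave 0.36 (adjusted p = 0.0212) and probe alone against DMSO at 12 h gave 0.23 (adjusted p = 0.0359). The first of these was not kept without T-REX replicate 4 or DMSO replicate 1, 2 or 4 (0.28 to 0.42) and the second was not kept without probe alone replicate 1, 2 or 3 or DMSO replicate 2 or 3 (0.21 to 0.26), while the other calls held without any 1 library. ERG28, a scaffold of the sterol enzymes, was lower at 12 h with T-REX than in the DMSO libraries, by a log2 fold change of -0.47 (adjusted p = 0.000425), and with probe alone by -0.39 (adjusted p = 0.00637). The fit of the 2 arms alone did not call ERG28 with probe alone, nor LPIN1 against DMSO with T-REX at 3 h or with probe alone at 12 h.

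The other calls among these neighbours were against DMSO or probe alone. At 3 h DHDDS (0.30), NUS1 (-0.27), ACSL3 (-0.21) and HSD17B12 (-0.25) were called between T-REX and DMSO, and DHDDS (0.31), ACSL3 (-0.19) and ELOVL5 (-0.22) between T-REX and probe alone. At 12 h NUS1 (-0.29), NPC1 (0.19), LBR (-0.24), TECR (-0.30) and SCD5 (-0.36) were called between T-REX and DMSO, and NUS1 (-0.29) and ACACB (0.30) between probe alone and DMSO. DHDDS and NUS1 together form the enzyme that builds long isoprenoid chains for dolichol, and at 3 h they were called in opposite directions. All of these are log2 fold changes. Of these calls, ACSL3 against DMSO and TECR held without any 1 library. DHDDS against DMSO was lost without DMSO replicate 1 (0.25 to 0.33), NUS1 at 12 h with T-REX without T-REX replicate 3, NPC1 without T-REX replicate 1, LBR without T-REX replicate 4 and SCD5 without T-REX replicate 3 or DMSO replicate 3. Without DMSO replicate 3 the log2 fold change at 12 h was -0.18 for NUS1 in both comparisons and -0.23 for SCD5. The remaining calls were each lost in 4 to 6 of the 8 fits, and the fit of the 2 arms alone kept none of the calls of this paragraph.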

How the data were processed

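Total RNA was converted to stranded libraries with rRNA depletion and sequenced as read pairs on a NovaSeq, and base calls were processed with bcl2fastq per the labels. The authors deposited raw read counts per gene in 1 table for each time. For the time course, the study's reporting form names cutadapt (trimming), TopHat (alignment) and Cufflinks, while the program that made these whole-number counts, the genome build and the strand setting are not given in the sources used here, so reads shared with pseudogenes or overlapping genes may be placed either way. The authors also deposited 2 scores per library, factors of unwanted variation (RUV), which served as covariates in 1 alternative, and log2 CPM and RUV-transformed tables, which were not used here.

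Ensembl identifiers were matched to symbols by table (14648 of 14685 genes). Counts were tested in edgeR 4.0.16 (R 4.3.3) with TMM scaling, its filter on low counts, which removed 0 genes, and the robust quasi-likelihood test, with all 16 libraries of a time in 1 fit and all 48 in 1 fit for time. The p-values were adjusted by Benjamini-Hochberg over all genes (threshold 0.05). Standard errors came from the fold change and F statistic, and intervals are 95%. Levels are CPM, so levels of different genes are not compared. Total counts of 23952455 to 37099535 set the counting error. The scripts were tested on simulated counts.

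Samples were grouped by treatment label, 4 biological replicates per arm and time, and no 2 libraries agreed within sampling noise (chi-square per degree of freedom 3.15 to 46.5 over 72 pairs). The genes, lists and tests were chosen with earlier results of these data known. Genes called in any of the 18 comparisons and the 5 regulators are given with values, and neighbouring genes are named where called. Alternatives were DESeq2 1.42.0, RLE factors, no filter, the RUV factors, the 2 arms alone, a replicate block and leaving out each library.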

Additional observations from a re-analysis of the deposited data

Results flagged for a closer look

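FDFT1 in T-REX replicate 4 at 6 h stood at 69.1 CPM, far below the other 3 libraries (76.8, 77.0 and 77.7 CPM). ELOVL6 in T-REX replicate 2 at 3 h stood at 40.9 CPM, far above the other 3 (33.6, 34.4 and 34.8 CPM), and this library is the one that reached into the DMSO range. These were 2 of 180 groups of 4 libraries examined, and chance flags about 1 in 20.

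ERG28 was the neighbouring gene whose difference between probe alone and DMSO changed with time, by a log2 difference of -0.48 between 12 and 6 h (edgeR's quasi-likelihood test of the interaction, adjusted p = 0.0351). It stood at 44.3, 48.9, 48.1 and 48.9 CPM with probe alone and 47.4, 43.3, 49.3 and 38.9 CPM with DMSO at 6 h, and at 42.1, 39.1, 43.1 and 43.5 CPM with probe alone and 55.4, 51.3, 65.1 and 47.8 CPM with DMSO at 12 h. The call was lost in 9 of the 16 fits that left out 1 library (-0.54 to -0.39): without probe alone replicate 2, 3 or 4 or DMSO replicate 3 or 4 at 6 h, and without probe alone replicate 1, 2 or 3 or DMSO replicate 3 at 12 h.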

How the results depend on the processing

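The number of the 30 genes called depended strongly on the fit. No fold change called in the main fit, of the 30 genes or their neighbours, turned its direction under any alternative run. Of the values of these calls under the alternatives, 511 kept the call and 209 lost it. Fold changes that were not called, and those between times in the DMSO libraries, were not checked for a turn of direction. Removing the filter changed no count. With the 2 deposited RUV factors as covariates, light alone against probe alone had 14, 5 and 11 genes called at 3, 6 and 12 h, T-REX against light alone 9, 3 and 4, T-REX against probe alone 13, 1 and 9, T-REX against DMSO 8, 3 and 10, probe alone against DMSO 6, 11 and 11, and light alone against DMSO 6, 6 and 6. Of all genes that fit called 2176, 450 and 1231 in the first of these comparisons at 3, 6 and 12 h, against 34, 9 and 61 in the main fit. For T-REX it called 1733, 1202 and 1266 against light alone, 2551, 257 and 901 against probe alone and 3061, 1048 and 3925 against DMSO. Against DMSO it called 183, 360 and 3298 with probe alone and 858, 1797 and 1022 with light alone. More genes were thus called among the 30 and among all genes, and the cause was not tested. With the 2 arms alone in the fit, light alone against probe alone had 11 called at 3 h and 9 at 12 h, T-REX against light alone 4 at 12 h, T-REX against probe alone 0, 1 and 7 at 3, 6 and 12 h, T-REX against DMSO 0, 2 and 0, and probe alone against DMSO 0 at 12 h. In the same order, these fits called 156 and 709, 1127, 3, 88 and 389, 187, 128 and 366, and 14 of all genes. DESeq2 called 12 for light alone against probe alone at 3 h, 2 between T-REX and light alone at 3 h, 6 between T-REX and probe alone at 3 h and at 12 h, 2 between T-REX and DMSO at 6 h, 1 between light alone and DMSO at 12 h and 1 for the change of T-REX minus DMSO from 3 to 6 h. Of all genes it called 239 for the first of these, 255 for the second, 550 and 241 for T-REX against probe alone at 3 h and 12 h, 288 for T-REX against DMSO at 6 h, 20 for light alone against DMSO and 73 for the change. With RLE factors 2 were called between T-REX and probe alone at 3 h and 0 between probe alone and DMSO at 6 h. Of all genes that fit called 175 and 2 in these comparisons.

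Same-numbered libraries did not deviate together throughout (correlations of -0.64 to 0.58, with 0 comparisons in which every pair was over 0.1). At 6 h those of T-REX and probe alone were 0.473, 0.248, 0.0985 and 0.375 in replicates 1 to 4. Those of probe alone and DMSO at 6 h were -0.087, -0.100, -0.267 and -0.222. Whether the replicate numbers pair the samples was not settled by these values. With the replicate number as a block, 4 genes were called between T-REX and probe alone at 3 h and 2 at 12 h. Between probe alone and DMSO 1 was called at 6 h and 1 at 12 h. In the same order, 203, 90, 4 and 643 of all genes were called. The block ended the calls of ACAT2 at 3 h for light alone against probe alone, IDI1 between probe alone and DMSO at 6 h and between T-REX and probe alone at 12 h, SREBF2 in both its comparisons and LPIN1 between probe alone and DMSO.

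Leaving out 1 library at a time gave 0 to 9 genes called for light alone against probe alone at 3 h and 2 to 6 at 12 h (2 without light alone replicate 2 or probe alone replicate 2 or 3). T-REX against light alone gave 0 to 1 at 3 h and 1 to 2 at 12 h, T-REX against probe alone 0 to 6 at 3 h and 0 to 5 at 12 h, and T-REX against DMSO 0 to 5, 0 to 2 and 0 to 5 at 3, 6 and 12 h. Probe alone against DMSO gave 0 to 1 at 6 h and 1 to 5 at 12 h, light alone against DMSO 0 to 3 at 12 h (3 without DMSO replicate 4), and the change of T-REX minus DMSO from 3 to 6 h 0 to 1. Without DMSO replicate 3 at 12 h, 5 genes were called against DMSO with T-REX and 5 with probe alone. The counts of all genes in these fits are not given here, so the ranges show only how far the calls rested on single libraries. Over these fits HMGCS1 kept its calls at 12 h between light alone and probe alone, T-REX and light alone, and probe alone and DMSO, and IDI1 kept its call between light alone and probe alone.

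With 4 libraries per arm, differences of the size seen here lay near the threshold, and EBP, PMVK, MVD and TM7SF2 rest on low counts. Whether the arm called light alone received the probe was not settled by the sources used here. The plasmid's NCBP1 differed between arms, and counts over a gene cannot tell it from the chromosomal gene. Each time was deposited as its own table.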

Other observations

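FASN, MVD and SREBF1 were high in the same T-REX libraries at 3 h. In replicates 1 to 4, FASN stood at 66.9, 96.6, 284 and 289 CPM, MVD at 4.86, 6.64, 15.8 and 12.0 CPM and SREBF1 at 10.1, 11.6, 17.4 and 16.4 CPM. The split was not confined to genes of the pathway. Of the HEK293T markers, NEFM stood at 22.2, 26.1, 37.8 and 34.4 CPM in these libraries. EYA1 did not show the split, at 39.1, 38.5, 33.8 and 37.8 CPM. Replicates 1 and 3 also had the highest chi-square per degree of freedom of all replicate pairs (46.5). In the DMSO libraries at 3 h FASN (163, 108, 199 and 93.6 CPM) and SREBF1 (9.47 to 17 CPM) were both high in replicates 1 and 3, whereas HMGCS1 stood at 158, 172, 133 and 163 CPM there.

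Among the neighbouring genes in the DMSO libraries, ABCA1 rose from 3 h to 12 h by a log2 fold change of 1.21 (edgeR's quasi-likelihood test, adjusted p = 1.49e-09) and SCD5, a second stearoyl-CoA desaturase, by 0.93 (adjusted p = 3.78e-11). In all, 15 of these 44 genes were called (34.1%), against 38.8% of all genes. Time and the separate deposition of each time cannot be told apart.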
